A study of Mus musculus with 6 samples.

Results

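Genes of beta-adrenergic receptor and cAMP signaling were examined in the gastrocnemius, a fast muscle of the calf, of Nogo+/+ (wild-type) and Nogo-/- (Nogo knock-out) mice. The set holds 9 of the 12353 genes in the deposited table, namely the adenylyl cyclases *Adcy9* and *Adcy6*, the phosphodiesterases *Pde4a*, *Pde4b*, *Pde4c* and *Pde4d*, the kinase subunits *Prkar1a* and *Prkar2a*, and the coactivator *Ppargc1a*. The genes were matched by identifier and symbol, all 9 were found, and all 9 had a mean FPKM of at least 1 over the 6 libraries. They were picked by role with values of this same comparison in view, so their differences between the groups are given as a description, with standard errors. No p-value is printed for any of the 9, and whether one was among the genes called is likewise a description. No receptor is among the 9, and the receptors that could be measured are given with the rest of the pathway.

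Polyadenylated RNA was sequenced in 6 libraries, each of 1 mouse, called Samples 1 to 3 (Nogo+/+, n = 3) and Samples 4 to 6 (Nogo-/-, n = 3). The labels give neither age, sex nor strain for these mice, and no injury or drug. *Rtn4*, the gene of all Nogo isoforms, had an FPKM of 414 to 429 in the Nogo+/+ libraries and of 0.312 to 0.423 in the Nogo-/- libraries (log2 fold change −8.40, standard error 0.07, adjusted p = 2.08e-10, limma), which fits the labels. FPKM count the fragments of a gene relative to transcript length and to all mapped fragments, so levels may be compared between genes. Differences are given on the log2(FPKM + 1) scale after quantile normalization, as Nogo-/- minus Nogo+/+, with a standard error (SE) from limma, a scale on which changes of weakly expressed genes look smaller than they are. All 10 skeletal muscle fiber markers were detected, and the fast myosin *Myh4* (2901 to 3057 FPKM in Nogo+/+ and 2635 to 2949 in Nogo-/- libraries) was above the slow *Myh7* (208 to 241 and 199.8 to 237) in every library. Each library held about 13465000 to 14430000 fragments. Of all 12353 genes, 573 (4.64%) passed an adjusted p of 0.05 and are called changed, 233 of them (1.89%) higher and 340 (2.75%) lower in Nogo-/- muscles. Without quantile normalization the split was 302 higher and 234 lower.

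In this pathway, catecholamines bind beta-adrenergic receptors, which act through the stimulatory G protein on adenylyl cyclase, the enzyme that makes cyclic AMP (cAMP). cAMP binds the regulatory subunits of protein kinase A and frees the catalytic subunits, and phosphodiesterases end the signal by breaking cAMP down. In skeletal muscle the kinase promotes glycogen breakdown and, through the factor CREB, the transcription of genes such as *Ppargc1a*, whose product PGC-1α drives the formation of mitochondria.

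Differences among the 9 genes were small, and the regulatory subunit *Prkar1a* stood out for how closely its libraries lay together within each group. *Prkar1a* was at 0.829 times its Nogo+/+ mean in Nogo-/- muscles and *Adcy9* at 0.771 times, while *Pde4b* and *Pde4c* were at 1.26 and 1.4 times. *Ppargc1a* and *Adcy6* had means of 0.945 and 1.03 times those of Nogo+/+ muscles, with overlapping groups. The log2 difference was under 0 in 6 of the 9 genes and above 0 in 3, with a median of −0.12 against −0.007 over all genes, and the largest in size was 0.36. Only *Prkar1a* was among the genes called changed, or 1 of 9, where 4.64% of all genes were. The FPKM ranges of the groups did not overlap in 5 of the 9, with 3 lower and 2 higher in Nogo-/- muscles, where this held for 25.9% of all genes (10.0% lower and 15.9% higher). On the normalized log2 scale *Pde4a* joined them, making 6 of 9 against 26.0% of all genes. Since these values chose the genes, nothing further is read from the counts. Markers of blood vessels were lower in the same libraries. Of 8 endothelial markers 6 were called lower, with a summed FPKM of 143 to 161 in Nogo+/+ and 96.8 to 118 in Nogo-/- libraries. Of 8 smooth muscle and pericyte markers 2 were called lower, *Acta2* and *Pdgfrb*. FPKM ranges did not overlap for 4 of the 8, all lower in Nogo-/- muscles. The sums over the 8 were 1071 to 1087 and 1024 to 1078. Most of each sum was *Des*, which muscle fibers also express, at 838 to 846 and 832 to 865, so the sums say little about vessel walls. In bulk tissue, a different number of cells of a type and a different amount of RNA per cell cannot be told apart. The part of vessel RNA in the lower values of *Prkar1a*, *Adcy9* and other genes below was not tested.

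**Figure D1:**
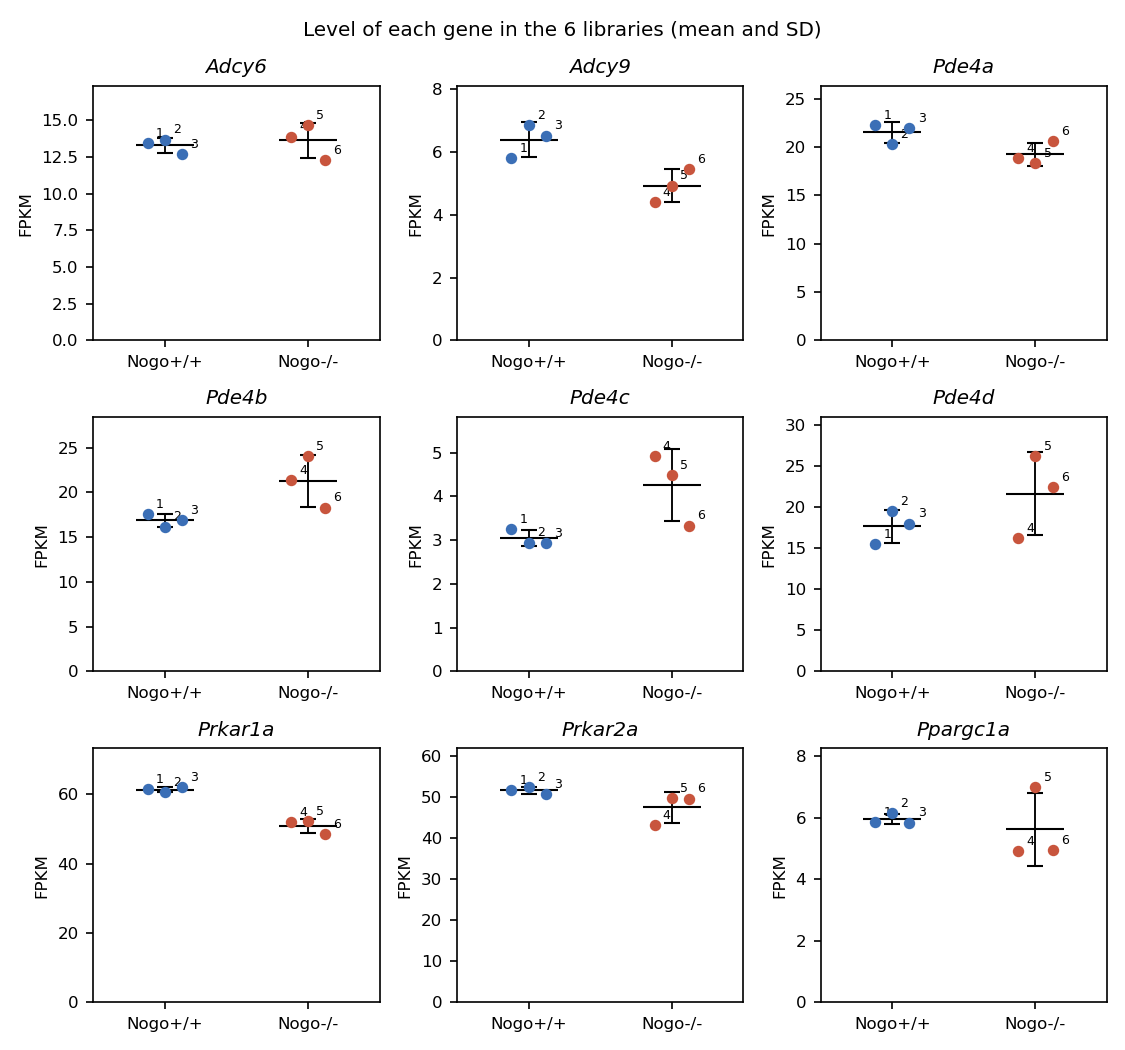
FPKM (vertical axes, from 0) of each of the 9 genes in the 6 libraries, with Nogo+/+ in blue and Nogo-/- in red, points numbered by Sample, and the mean and SD of 3 mice as bars. The 3 Nogo-/- points of *Prkar1a* (48.5 to 52.3) and *Adcy9* (4.40 to 5.46) lie below all Nogo+/+ points, those of *Pde4b* and *Pde4c* lie above, and those of *Adcy6*, *Pde4d* and *Ppargc1a* overlap them.

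*Prkar1a* encodes the type I alpha regulatory subunit of protein kinase A, which holds the catalytic subunits inactive until it binds cAMP. The gene lies on chromosome 11 from 109649405 to 109669656 of GRCm38 on the plus strand, and 3 of its 5 annotated transcripts code for protein. Its FPKM was 61.4, 60.6 and 62.2 in Samples 1 to 3 and 52.0, 52.3 and 48.5 in Samples 4 to 6. Every Nogo-/- library was thus below every Nogo+/+ library, and the spread within a group was small, with a coefficient of variation of 1.31% among Nogo+/+ and 4.10% among Nogo-/- mice. The group means were 61.4 ± 0.801 (SD, n = 3 mice) and 50.9 ± 2.09 (SD, n = 3), a log2 difference of −0.30 (SE 0.04). With single libraries left out the difference ranged from −0.32 to −0.28. *Prkar1a* stayed among the genes called in 4 of these 6 fits and was no longer among them without Sample 2 (−0.30) or without Sample 3 (−0.30). Leaving out these libraries hardly moved its difference, and 188 and 192 genes in all were then called.

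*Prkar2a*, the type II alpha regulatory subunit that anchoring proteins hold at defined sites of the cell, was nearly as abundant. It lies on chromosome 9 from 108689314 to 108750436. Its FPKM was 51.6, 52.4 and 50.6 in Samples 1 to 3 and 43.2, 49.7 and 49.6 in Samples 4 to 6. The groups did not overlap, but Samples 5 and 6 lay just under the lowest Nogo+/+ value and only Sample 4 lay well below it. The log2 difference was −0.16 (SE 0.07) and came to −0.09 without Sample 4. *Prkar2a* was not among the genes called.

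Of the other kinase A genes, the type II beta subunit *Prkar2b*, which prevails in fat and brain, rose in Nogo-/- muscles. Its FPKM was 1.41, 1.69 and 1.60 in Samples 1 to 3 and 5.72, 4.94 and 2.38 in Samples 4 to 6, so that the groups did not overlap (log2 fold change 0.96, SE 0.21, adjusted p = 0.0415, limma). Leaving out single libraries gave 0.79 to 1.25, and the call held only without Sample 6 (adjusted p = 0.00101) and was lost without each of Samples 1 to 5 (adjusted p = 0.108 to 0.134, limma). Fat cell markers moved with it in part. The summed FPKM of 10 adipocyte markers was 421, 499 and 505 in Samples 1 to 3 and 939, 599 and 486 in Samples 4 to 6. Of the 10, 6 had Nogo-/- values all above the Nogo+/+ values, where this held for 15.9% of all genes. None of the 10 was called, and 6 were at an unadjusted p under 0.05 in limma, where 20.5% of all genes were. In Sample 6 the adipocyte sum, most of it *Fabp4* and *Cfd*, lay within the Nogo+/+ range while *Prkar2b*, at 2.38, lay above the highest Nogo+/+ value of 1.69. The same 6 markers were above their Nogo+/+ values in Sample 6 as well, but by unequal gaps. *Cidec* was at 13.1 against at most 9.38, *Fabp4* at 256.9 against 256.7 and *Pparg* at 2.85 against 2.84. After quantile normalization the groups overlapped in *Fabp4*. *Adipoq*, *Cfd*, *Retn* and *Adrb3* were not above their highest Nogo+/+ value in Sample 6. The part of adipocyte RNA in the *Prkar2b* difference was not tested.

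**Figure D2:**
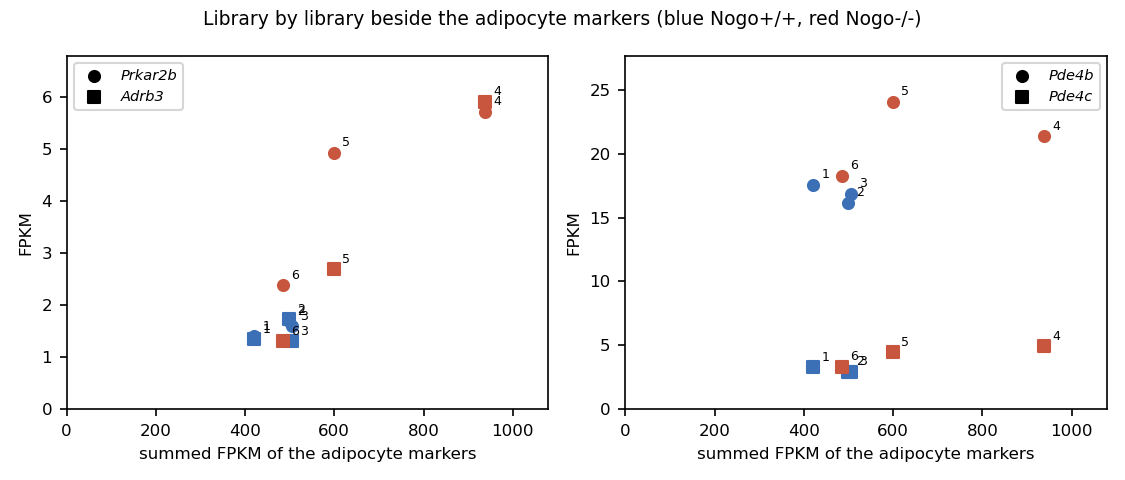
FPKM of *Prkar2b* and the receptor *Adrb3* (left) and of *Pde4b* and *Pde4c* (right) on the vertical axes against the summed FPKM of 10 adipocyte markers, *Adrb3* among them, on the horizontal axes, with 1 point per library numbered by Sample (blue Nogo+/+, red Nogo-/-). Sample 4 has the highest adipocyte sum, at 939, and the highest *Prkar2b*, *Adrb3* and *Pde4c*, whereas *Pde4b* is highest in Sample 5.

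The catalytic subunits, by contrast, showed no called difference. *Prkaca* and *Prkacb* together had a summed FPKM of 74.1 to 79.0 in Nogo+/+ and 72.9 to 76.6 in Nogo-/- libraries, with overlapping groups. The regulatory subunits *Prkar1a*, *Prkar2a* and *Prkar2b* summed to 114 to 115 in Nogo+/+ and 100.5 to 107 in Nogo-/- libraries. The ratio of regulatory to catalytic transcripts was 1.54, 1.51 and 1.45 in Samples 1 to 3. In Samples 4 to 6 it was 1.38, 1.43 and 1.31, lower in every Nogo-/- library, with Samples 3 and 5 close together. Most of the regulatory sum was *Prkar1a* and *Prkar2a*, picked with these values in view. No test was therefore made of the ratio or of the shares that follow. *Prkar1a* made up 53.6% ± 0.772 of the regulatory sum in Nogo+/+ against 49.6% ± 1.72 in Nogo-/- muscles (SD, n = 3 each), and *Prkar2b* 1.37% ± 0.122 against 4.22% ± 1.69. The share of *Prkar2a* overlapped between the groups, at 44.2% to 45.7% and 42.8% to 49.3%. The kinase inhibitor *Pkia* was just outside the threshold, at 206 ± 8.44 FPKM in Nogo+/+ and 183 ± 3.29 in Nogo-/- muscles (SD, n = 3 each) and a log2 fold change of −0.20 (SE 0.05, adjusted p = 0.0556, limma). *Pkia* was called lower without Sample 1 and with sample weights. Of the 5 kinase A genes outside the set, 1 rose, none fell and 4 did not pass in the main fit, where 4.64% of all genes were called.

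The Pde4 phosphodiesterases, which break down cAMP and are the targets of rolipram, had higher means in Nogo-/- muscles for *Pde4b*, *Pde4c* and *Pde4d* and a lower mean for *Pde4a*, and none of them was among the genes called over all 6 libraries. *Pde4b*, on chromosome 4 from 102087543 to 102607259, had an FPKM of 17.6, 16.2 and 16.9 in Samples 1 to 3 and 21.4, 24.1 and 18.3 in Samples 4 to 6. The groups did not overlap, but Sample 6 was only just above the highest Nogo+/+ library, and the log2 difference was 0.26 (SE 0.09). *Pde4c*, on chromosome 8 from 70723720 to 70751186, was the least abundant of the set, at 3.26, 2.94 and 2.93 in Samples 1 to 3 and 4.93, 4.49 and 3.33 in Samples 4 to 6. Here too Sample 6 was next to the Nogo+/+ libraries, and the log2 difference was 0.33 (SE 0.11). *Pde4c* was among the genes called only without Sample 6, where its difference was 0.45. Sample 6 also held the most RNA of skin epithelium, with a summed FPKM of 296 over 10 markers against 9.41 to 22.5 in the other 5 libraries. The part of adipocyte or skin RNA in the Pde4 values was not tested.

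*Pde4a*, on chromosome 9 from 21165714 to 21213248, was lower on average in Nogo-/- muscles. Its FPKM was 22.3, 20.3 and 22.0 in Samples 1 to 3 and 18.9, 18.3 and 20.6 in Samples 4 to 6, so that Sample 6 was above Sample 2. After quantile normalization the groups no longer overlapped, with a log2 difference of −0.20 (SE 0.07). *Pde4d*, on chromosome 13 from 108449948 to 109953461, varied most between mice, at 15.5, 19.5 and 18.0 in Samples 1 to 3 and 16.2, 26.2 and 22.4 in Samples 4 to 6. Sample 4 lay among the Nogo+/+ libraries and Samples 5 and 6 above them, and the log2 difference was 0.21 (SE 0.16, 95% interval −0.16 to 0.59). It came to 0.41 without Sample 4 and to 0.07 without Sample 5. None of *Pde4a*, *Pde4b* and *Pde4d* was among the genes called, whichever single library was left out.

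As a result the make-up of the Pde4 transcripts differed between the groups. Their summed FPKM was 58.7 to 59.8 in Nogo+/+ and 61.3 to 73.1 in Nogo-/- libraries. *Pde4a* held 38.0%, 34.5% and 36.8% of this sum in Samples 1 to 3, where it was the most abundant of the family, and 30.8%, 25.1% and 31.9% in Samples 4 to 6. The ratio of *Pde4b* to *Pde4a* was 0.768 to 0.797 in Nogo+/+ and 0.888 to 1.31 in Nogo-/- muscles, with no overlap. The shares of *Pde4b*, *Pde4c* and *Pde4d* overlapped between the groups. No test was made of these shares, since they were computed from the values that chose the genes.

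**Figure D3:**
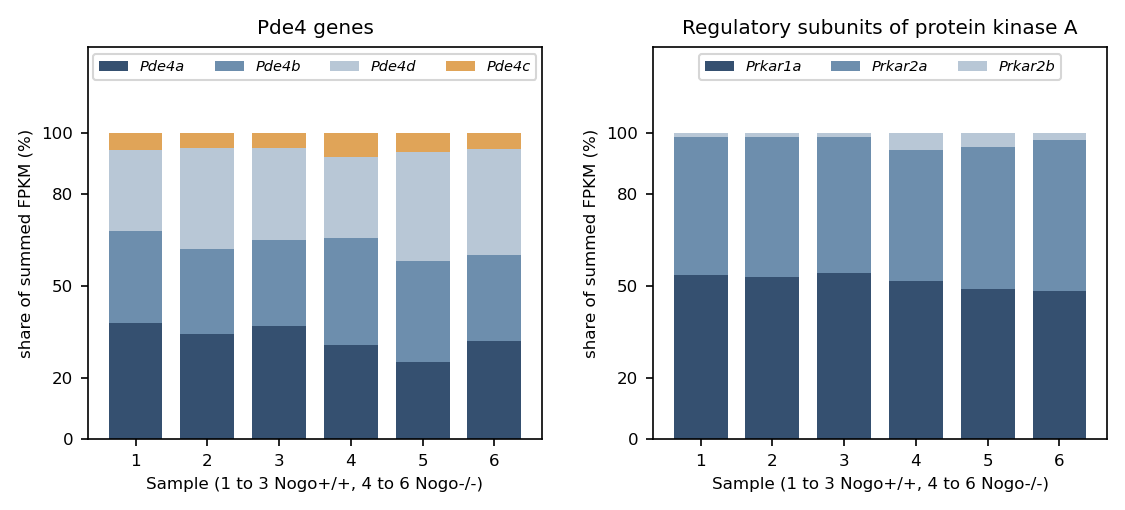
Share (vertical axes, percent of summed FPKM) of each Pde4 gene (left) and of each regulatory subunit of protein kinase A (right) in the 6 libraries, Samples 1 to 3 from Nogo+/+ and 4 to 6 from Nogo-/- mice. The *Pde4a* part is 34.5% to 38.0% of the Pde4 sum in Nogo+/+ and 25.1% to 31.9% in Nogo-/- libraries, and the thin *Prkar2b* part is 1.23% to 1.47% and 2.37% to 5.67% of the regulatory sum.

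Between the 2 cyclases of the set, *Adcy9* was lower in Nogo-/- muscles and *Adcy6* was not. *Adcy9*, a cyclase of wide tissue distribution, lies on chromosome 16 from 4287529 to 4420498 on the minus strand. Its FPKM was 5.80, 6.87 and 6.52 in Samples 1 to 3 and 4.40, 4.93 and 5.46 in Samples 4 to 6. The groups did not overlap, the nearest libraries being Samples 1 and 6, and the log2 difference was −0.36 (SE 0.10), the largest in size of the 9 on this scale. Without quantile normalization that of *Pde4c* was larger in size, at 0.365 against −0.320 for *Adcy9*. *Adcy9* was not among the genes called, with or without any single library. *Adcy6*, a cyclase that calcium inhibits, lies on chromosome 15 from 98589973 to 98610076 and had an FPKM of 13.5, 13.7 and 12.7 in Samples 1 to 3 and 13.9, 14.7 and 12.3 in Samples 4 to 6. The Nogo-/- libraries spanned the Nogo+/+ range, and the log2 difference was −0.01 (SE 0.07, 95% interval −0.17 to 0.15), of either sign depending on the scaling. Of the other cyclases, none of the 4 measured was called (1 at an unadjusted p under 0.05 in limma, as were 20.5% of all genes). *Adcy2* was the nearest, at 11.9 ± 1.00 FPKM against 9.68 ± 1.04 in Nogo-/- muscles (SD, n = 3 each) and a log2 fold change of −0.31 (SE 0.09, adjusted p = 0.113, limma). The 6 cyclase genes summed to 40.1 to 42.7 in Nogo+/+ and 34.9 to 39.5 in Nogo-/- libraries, and *Adcy6* held 31.7% to 32.9% and 35.3% to 38.5% of the sum.

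*Ppargc1a*, which encodes PGC-1α and is the transcriptional target of the set, lies on chromosome 5 from 51454250 to 51567726 on the minus strand. Its FPKM was 5.86, 6.14 and 5.84 in Samples 1 to 3 and 4.91, 7.0 and 4.94 in Samples 4 to 6. Samples 4 and 6 were below all Nogo+/+ libraries and Sample 5 above them, with a coefficient of variation of 21.3% among Nogo-/- and 2.84% among Nogo+/+ mice. The log2 difference was −0.12 (SE 0.11, 95% interval −0.38 to 0.14), and it was −0.25 without Sample 5 and −0.03 without Sample 4. Sample 5 was also the highest of the 6 libraries in *Pde4b*, *Pde4d* and *Adcy6*.

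**Figure D4:**
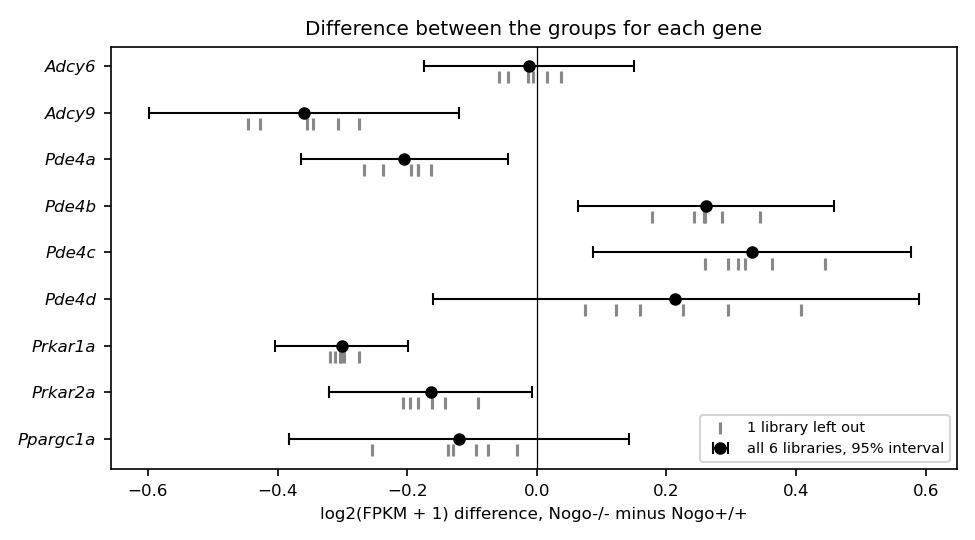
Difference between the groups for each gene on the log2(FPKM + 1) scale (horizontal axis, Nogo-/- minus Nogo+/+), with points for the fit to all 6 libraries, bars for its 95% interval and grey ticks for the 6 fits that leave out 1 library. The ticks of *Prkar1a* stay between −0.32 and −0.28, whereas those of *Pde4d* run from 0.07 to 0.41 and those of *Adcy6* lie on either side of 0.

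In Nogo+/+ muscles the order of the 9 levels was *Prkar1a*, *Prkar2a*, *Pde4a*, *Pde4d*, *Pde4b*, *Adcy6*, *Adcy9*, *Ppargc1a* and *Pde4c*, from a mean FPKM of 61.4 to one of 3.04. Neighbors with overlapping ranges were *Pde4d* and *Pde4b*, and *Adcy9* and *Ppargc1a*. In Nogo-/- muscles 3 further pairs of neighbors in this order overlapped, *Prkar1a* and *Prkar2a*, *Pde4a* and *Pde4d*, and *Ppargc1a* and *Pde4c*. The values rest on unequal numbers of fragments. If the coding transcripts of a gene bound its length, *Prkar1a* had 641 to 3149 fragments in a library, *Adcy9* 271 to 468, *Ppargc1a* 33 to 653 and *Pde4c* 31 to 225. The genes whose log2 values over the 6 libraries were nearest to those of *Prkar1a*, each centred on its own mean, were *Gna13*, a G protein alpha subunit (root mean square difference 0.0256), and *Asb12* (0.0260), out of 11539 protein-coding genes.

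The promoters were read for the cAMP response element, the DNA sequence bound by CREB. A search was made on both strands for its core of 5 letters, TGACG or its reverse complement CGTCA, and for the complete element TGACGTCA, which holds 2 overlapping cores, in the 250 bases before each RefSeq start on GRCm38.p6. Of all 32851 start sites 17.8% had a core and 1.55% the complete element, and 19.8% of genes had a core before at least 1 of their starts. Among the 9 genes 8 had such a window, and 5 of the 8 had a core, *Prkar1a*, *Adcy9*, *Pde4a*, *Pde4b* and *Ppargc1a*, in 7 of 18 windows. Of the 7 windows 3 were of *Prkar1a*, and 2 of these overlapped and shared 1 core. The complete element was present once, before 1 of the several starts of *Prkar1a*. Among the cAMP-responsive target genes that were measured, 7 of 8 with a window had a core. That list was picked as known CREB targets, so its share was not independent of the choice and is no test. The windows of 4 of the 9 genes are printed below with those of *Nr4a1* and *Per1*, cAMP-responsive genes that rose and held a core, from 5′ to 3′ with the matches in capitals.
*Prkar1a* (chr11:109650699-109650948, plus strand): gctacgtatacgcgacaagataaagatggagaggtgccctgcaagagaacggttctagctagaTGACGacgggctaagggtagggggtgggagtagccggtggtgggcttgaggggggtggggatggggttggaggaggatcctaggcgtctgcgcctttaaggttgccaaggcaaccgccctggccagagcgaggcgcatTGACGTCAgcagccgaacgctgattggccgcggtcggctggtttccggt
*Adcy9* (chr16:4420499-4420748, minus strand): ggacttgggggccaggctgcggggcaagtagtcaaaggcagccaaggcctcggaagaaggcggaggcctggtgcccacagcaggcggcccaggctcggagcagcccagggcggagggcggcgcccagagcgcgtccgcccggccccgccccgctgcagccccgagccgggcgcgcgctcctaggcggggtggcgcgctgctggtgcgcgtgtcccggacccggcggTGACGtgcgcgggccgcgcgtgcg
*Pde4a* (chr9:21183851-21184100, plus strand): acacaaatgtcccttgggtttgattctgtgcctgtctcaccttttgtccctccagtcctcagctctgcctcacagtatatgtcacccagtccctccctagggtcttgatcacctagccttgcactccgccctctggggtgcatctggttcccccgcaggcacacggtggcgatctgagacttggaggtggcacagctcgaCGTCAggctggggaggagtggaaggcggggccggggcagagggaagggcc
*Ppargc1a* (chr5:51567726-51567975, minus strand): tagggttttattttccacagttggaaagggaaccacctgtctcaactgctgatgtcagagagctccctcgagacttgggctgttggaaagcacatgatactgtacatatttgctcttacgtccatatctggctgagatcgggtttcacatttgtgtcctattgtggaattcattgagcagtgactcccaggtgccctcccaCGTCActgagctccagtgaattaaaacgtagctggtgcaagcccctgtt
*Nr4a1* (chr15:101266596-101266845, plus strand): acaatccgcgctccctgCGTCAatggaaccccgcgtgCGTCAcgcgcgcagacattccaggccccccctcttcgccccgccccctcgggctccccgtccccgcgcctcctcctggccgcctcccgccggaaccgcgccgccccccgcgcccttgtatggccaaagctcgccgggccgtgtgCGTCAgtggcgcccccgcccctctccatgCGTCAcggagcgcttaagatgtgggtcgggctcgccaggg
*Per1* (chr11:69099902-69100151, plus strand): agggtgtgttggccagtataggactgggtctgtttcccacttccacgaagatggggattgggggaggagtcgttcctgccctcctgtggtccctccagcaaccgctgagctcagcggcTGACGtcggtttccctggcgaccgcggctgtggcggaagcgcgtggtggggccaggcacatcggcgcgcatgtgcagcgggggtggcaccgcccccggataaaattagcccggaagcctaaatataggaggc
In the *Prkar1a* window the complete element began 49 bases before the start, near the cores of *Pde4a* at 50 bases and of *Ppargc1a* at 49 bases. The *Adcy9* core was 24 bases before the start, and the *Nr4a1* window held 4 cores, as did only 0.137% of all windows (4 or more). *Irs2*, the other cAMP-responsive gene that rose, had no core in its window. A match describes letters in a window and shows no binding.

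The other genes of the pathway were counted from lists by role. Of 103 measured genes outside the set, 5 rose and 3 fell while 95 did not pass, or 7.77% called where 4.64% of all genes were. Their median log2 fold change was −0.04 against −0.007 over all genes. The 5 that rose were *Per1*, *Irs2*, *Nr4a1*, *Ucp3* and *Prkar2b*, and the 3 that fell were *Popdc3*, *Esrrb* and *Pdk4*. No list at the receptor end of the pathway held a called gene in this fit.

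Of 7 genes of beta-adrenergic receptors and their desensitization, none was called (3 at an unadjusted p under 0.05 in limma, as were 20.5% of all genes). The receptor kinase *Grk5* was at 2.49 ± 0.170 FPKM in Nogo+/+ and 1.66 ± 0.269 in Nogo-/- muscles (SD, n = 3 each), with a log2 fold change of −0.43 (SE 0.10, adjusted p = 0.0502, limma). This was just outside the threshold, and *Grk5* was called lower under some of the alternatives given at the end. *Adrb3*, the beta receptor of fat cells and also one of the adipocyte markers above, was at 1.35, 1.72 and 1.31 in Samples 1 to 3 and 5.92, 2.70 and 1.30 in Samples 4 to 6. It was thus high in the libraries with the most adipocyte RNA and overlapped between the groups (log2 fold change 0.63, SE 0.32, adjusted p = 0.323, limma). None of 7 other Gs-coupled receptor genes was called (2 at an unadjusted p under 0.05), with *Ramp2*, a partner of the adrenomedullin receptor, at 0.36 (SE 0.10, adjusted p = 0.102, limma). Of 7 genes of G protein alpha subunits and their chaperones none was called (2 at an unadjusted p under 0.05), and *Gnas*, the stimulatory subunit, was at 598 ± 14.2 FPKM in Nogo+/+ and 579 ± 5.94 in Nogo-/- muscles (SD, n = 3 each).

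Of 7 other cAMP phosphodiesterases, none was called in the main fit (3 at an unadjusted p under 0.05 in limma, as were 20.5% of all genes). *Pde8a* and *Pde2a* were called lower under some of the alternatives given at the end. *Pde8a* came nearest, at 5.34 ± 0.0863 FPKM against 4.35 ± 0.195 in Nogo-/- muscles (SD, n = 3 each), with a log2 fold change of −0.28 (SE 0.06, adjusted p = 0.0502, limma). *Pde2a* was at −0.35 (SE 0.12, adjusted p = 0.163, limma), with overlapping groups at 10.4 to 15.3 FPKM in Nogo+/+ and 9.90 to 10.7 in Nogo-/- libraries. *Pde2a* is also expressed in endothelium, whose markers were lower in Nogo-/- muscles as given above, and the part of vessel RNA in its values was not tested. Of 12 A-kinase anchoring proteins none was called (2 at an unadjusted p under 0.05), and *Akap6* was at −0.26 (SE 0.09, adjusted p = 0.149, limma). Of 5 Epac and Popeye genes, whose products bind cAMP outside protein kinase A, *Popdc3* fell. Its FPKM was 25.6 to 26.9 in Nogo+/+ and at most 21.8 in Nogo-/- libraries, without overlap (log2 fold change −0.34, SE 0.06, adjusted p = 0.0143, limma). Without Sample 1, 2 or 3 the call was lost (adjusted p = 0.0531 to 0.0792, limma). *Rapgef3*, the gene of Epac1, was at 0.29 (SE 0.07, adjusted p = 0.0670, limma).

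Further down, none of 9 CREB factors, coactivators and kinases was called in the main fit (2 at an unadjusted p under 0.05 in limma, as were 20.5% of all genes). The CREB relative *Atf1* was at −0.26 (SE 0.06, adjusted p = 0.0512, limma). It was called lower with only genes averaging 1 FPKM or more and with sample weights. Of 10 measured cAMP-responsive target genes, 3 rose, none fell and 7 did not pass, where 4.64% of all genes were called. FPKM ranges did not overlap for 4 that were higher and for 1, *Rgs2*, that was lower in Nogo-/- muscles. Over all genes this held for 15.9% higher and 10.0% lower. *Rgs2* was at 3.38 to 4.17 FPKM in Nogo+/+ and 2.05 to 3.05 in Nogo-/- libraries. It was just outside the threshold (log2 fold change −0.49, SE 0.12, adjusted p = 0.0553, limma) and was called lower with sample weights. *Per1*, also a core gene of the circadian clock, was at 2.01 ± 0.0841 FPKM in Nogo+/+ and 28.1 ± 8.88 in Nogo-/- muscles (SD, n = 3 each), with a log2 fold change of 3.18 (SE 0.21, adjusted p = 1.62e-04, limma). *Irs2*, an adaptor of the insulin receptor, was at 3.88 ± 0.309 against 7.06 ± 0.721 FPKM (SD, n = 3 each), a log2 fold change of 0.69 (SE 0.08, adjusted p = 0.00283, limma), and both passed in every fit with a library left out. *Nr4a1*, an orphan nuclear receptor, was at 49.3, 54.4 and 70.5 in Samples 1 to 3 and 138, 88.3 and 174 in Samples 4 to 6 (log2 fold change 1.10, SE 0.23, adjusted p = 0.0342, limma). Its call held without Sample 5 and was lost without each of the other 5 libraries (adjusted p = 0.0572 to 0.133, limma). *Fos*, *Dusp1* and *Sik1* of the same list were highest in Sample 4 or 6 and lowest in Sample 5 of all 6 libraries, and *Nr4a1* was likewise lowest in Sample 5 among Nogo-/- libraries. They did not pass, although *Sik1* and *Dusp1* were called without Sample 5.

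Of 11 muscle substrates of protein kinase A, among them the glycogen enzymes *Pygm* and *Gys1*, none was called. At an unadjusted p under 0.05 in limma were 5 of the 11, where 20.5% of all genes were. FPKM ranges did not overlap for 6, all higher in Nogo-/- muscles, where this held for 15.9% of all genes. For *Gys1*, *Cacna1s* and *Pygm* among these, the groups overlapped after quantile normalization. The largest difference was that of the lipase *Lipe*, at 0.52 (SE 0.17, adjusted p = 0.134, limma), which is also among the adipocyte markers. Of 19 partners and targets of PGC-1, *Ucp3* rose, *Esrrb* and *Pdk4* fell and 16 did not pass. At an unadjusted p under 0.05 in limma were 7 of the 19, where 20.5% of all genes were. FPKM ranges did not overlap for 5 that were lower and 3 that were higher, where this held for 10.0% and 15.9% of all genes. *Ucp3*, a mitochondrial carrier, was at 28.3 ± 1.51 FPKM in Nogo+/+ and 52.1 ± 4.86 in Nogo-/- muscles (SD, n = 3 each), and this rise of 0.81 on the log2 scale (SE 0.08, adjusted p = 0.00146, limma) passed in every fit with a library left out. *Pdk4*, which restrains the use of glucose, was at 135 ± 9.63 against 107 ± 11.2 FPKM (SD, n = 3 each), with a log2 fold change of −0.35 (SE 0.07, adjusted p = 0.0369, limma), and passed in 2 of 6 fits with a library left out, those without Samples 1 and 5. The orphan receptor *Esrrb* was low, at 2.85 ± 0.302 against 1.68 ± 0.202 FPKM (SD, n = 3 each), and its fall of −0.56 on the log2 scale (SE 0.11, adjusted p = 0.0260 over all 6 libraries) passed without Sample 5 or 6 only (adjusted p = 0.0596 to 0.116 in the other 4 fits, limma). The mitochondrial genes *Tfam* (0.04), *Cycs* (0.001) and *Cpt1b* (−0.03) on the log2 scale did not pass, with overlapping groups. *Cs*, another mitochondrial gene, did not pass either (log2 fold change −0.105, SE 0.04, adjusted p = 0.153, limma). Its groups did not overlap, at 305 to 309 FPKM in Nogo+/+ and 293 to 300 in Nogo-/- libraries. *Vegfa* was at −0.44 (SE 0.11, adjusted p = 0.0603, limma) and was called lower with sample weights and without Sample 4.

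**Figure D5:**
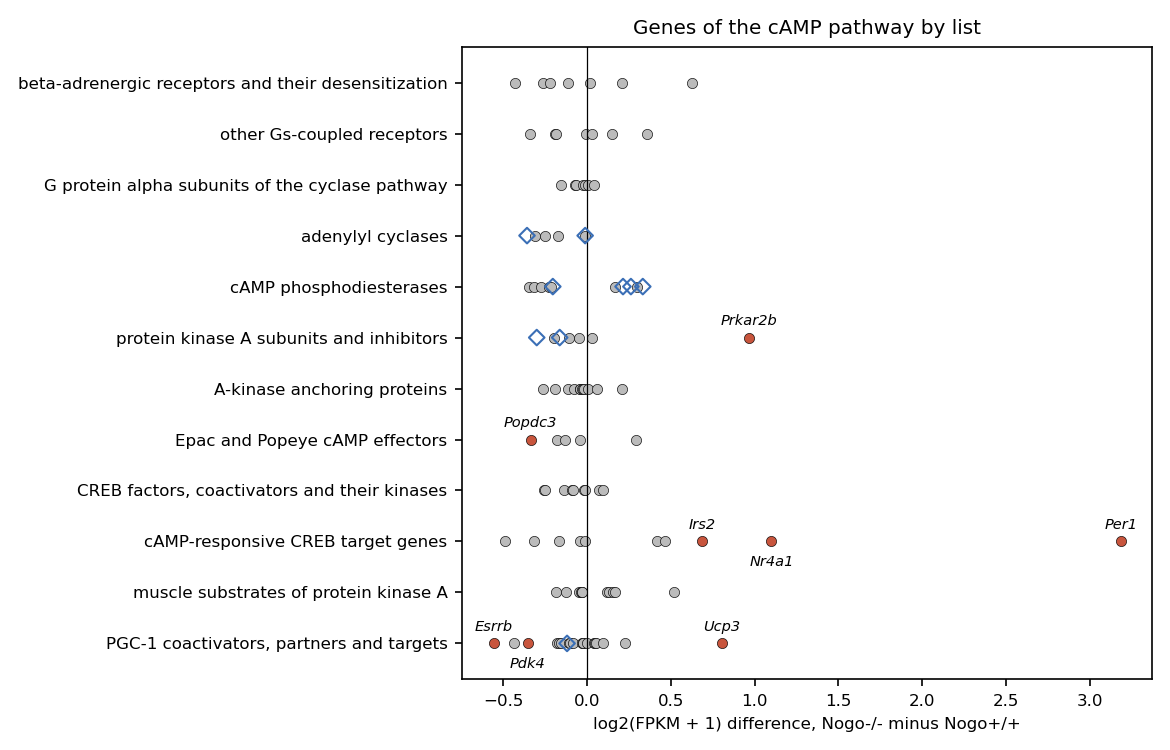
Log2(FPKM + 1) differences (horizontal axis, Nogo-/- minus Nogo+/+) of the genes in each of 12 pathway lists, with grey circles for genes that did not pass the test, red circles for called genes and blue diamonds for the 9 genes of the set. Called genes lie in 4 of the lists, with *Per1* farthest from 0 at 3.18, and the receptor, cyclase, anchoring protein and substrate lists hold none outside the set.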

How the data were processed

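Per the labels and the methods of the study, stranded libraries of polyadenylated RNA were sequenced, and the submitters' processing notes name CASAVA 1.8.2, cutadapt 1.4.2, STAR 2.6.1, Cufflinks 2.2.1 and the build GRCm38.p6. The values the authors deposited are FPKM, and every gene of the table reaches 1 in some library. The column names give Sample numbers only, and the groups of these numbers follow the heading of the study's table of the same FPKM. The 6 other columns, log2 values normalized by the authors, were not used. Quantile-normalized log2(FPKM + 1) was tested with limma 3.58.1 in R 4.3.3 (mean-variance trend, all 6 libraries, no covariates, two-sided), with Benjamini-Hochberg adjustment over 12353 genes at 0.05. The study's own permutation procedure was not run. Symbols matched for 12342 genes, and coordinates are from GENCODE M21. Depth came from genes with 1 transcript, whose low FPKM lay within 0.1 of whole fragments for 94.7% to 95.9% of values (20% by chance). The procedure was tested on simulated data. The 9 genes, the lists and the alternatives were chosen with earlier results of these data known. Named genes are the 9, called list genes, otherwise up to 4 of each list with the smallest p, and the 2 genes nearest in pattern to a called member. *Acta2*, *Pdgfrb*, *Des*, *Myh4*, *Myh7*, *Fabp4*, *Cfd*, *Cidec*, *Pparg*, *Adipoq*, *Retn*, *Prkaca*, *Prkacb*, *Adrb3*, *Pygm*, *Fos*, *Dusp1*, *Sik1*, *Rgs2*, *Tfam*, *Cycs* and *Cpt1b* were named after their values were seen where they fall outside that rule. *Cs* and *Cacna1s* were likewise named after their values were seen. Tables and figures were made in Python 3.11.15 with pandas 2.3.3, NumPy 2.4.6 and matplotlib 3.10.9.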

Additional observations from a re-analysis of the deposited data

How the results depend on the processing

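Alternatives were no quantile normalization, no trend, a pseudocount of 0.1, only genes averaging 1 FPKM or more, sample weights and leaving out each library. Over all genes 421 to 653 were called under the first 5 and 188 to 434 with a library left out. Of the pathway genes outside the set, 8 were called, 14 with sample weights and 3 to 9 with a library left out. Of the 9 genes 1 was called, and 0 to 2 with a library left out, 0 without Sample 2 or 3 and 2 without Sample 6. The difference of *Adcy6* changed sign to 0.031 without quantile normalization, 0.004 with sample weights, and ranged from -0.059 to 0.038 with a library left out (above 0 without Sample 2 or 6), and no other gene of the set or called pathway gene changed sign in these fits. Without the trend *Prkar2b*, *Nr4a1* and *Pdk4* were not called, nor was *Pdk4* without quantile normalization. *Grk5*, not called in the main fit, was called with a pseudocount of 0.1, with only genes averaging 1 FPKM or more, without the trend and with sample weights. It was not called without quantile normalization or with any library left out. *Pde8a* was called lower without the trend and with sample weights, and *Pde2a* without Sample 2. *Pkia*, *Atf1*, *Vegfa*, *Rgs2*, *Sik1* and *Dusp1* were called under the alternatives named with them above. With quantile-normalized FPKM the shares of *Pde4a*, *Pde4b*, *Pde4d* and *Prkar1a* and the ratio of regulatory to catalytic subunits moved by less than 1 SD. The other shares, sums and ratios were not recomputed. No paired analysis was possible because the columns carry no replicate number. The number of mice limits precision, and low genes such as *Pde4c* rest on few fragments. Intervals cover the spread between 3 mice per group.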
